A study of Drosophila melanogaster with 2 samples.

Results

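One-direction promoters are here the start regions of protein-coding genes where every protein-coding transcription start site (TSS) within 500 bp of a binding summit lies on the same DNA strand. Of the 2750 thresholded binding summits of E(spl)mδ-HLH in Drosophila melanogaster embryos, 1224 (44.5%, exact binomial 95% interval 42.6 to 46.4) lay at such promoters. They made up 80.3% (78.2 to 82.3) of the 1524 summits within 500 bp of any protein-coding TSS. The other 300 promoter summits had TSSs on both strands and are called divergent, and 1226 summits lay farther than 500 bp from every protein-coding TSS and are called distal.

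The protein, whose gene the annotation spells E(spl)mdelta-HLH, was mapped by chromatin immunoprecipitation sequencing (ChIP-seq) in 1 group of 2 biological replicates. Both came from whole mixed-sex embryos aged 2 to 12 h of 1 transgenic line that stably carries the protein with a GFP at its C-terminus. Chromatin was sonicated to fragments of 200 to 800 bp, and the peak lists were called against 1 shared control alignment. A free-text label calls the samples input controls, while the assay and antibody labels and the peaks called against a control go with immunoprecipitated chromatin, and they were treated as such. The age field is garbled, so the age comes from the source label. No group without the fusion protein was analysed here, and in whole embryos strong binding in few cells and weak binding in many cannot be told apart.

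E(spl)mδ-HLH is a basic helix-loop-helix (bHLH) repressor that Notch signalling switches on. Proteins of this family recruit the corepressor Groucho and keep cells from becoming neural precursors, and they recognise short sites such as E-boxes and N-boxes. Fly promoters carry different core elements. The DNA replication-related element (DRE) and Motif 1 are known from broadly active genes, while the TATA box, the initiator and GAGA repeats are known from genes switched on at particular times or places. Promoters of neighbouring genes that point away from each other are common in the compact fly genome, and a one-direction promoter, as defined here, has no such protein-coding partner within 500 bp.

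The sequences that carried the differences described below are shown first, as stretches of 30 bases on the coding strand of the nearest gene, 5′ to 3′, from the Release 6 genome (dm6). Capitals mark the motif. For each motif the strongest member among those used to show sequence is given. For GAGA repeats (GAGAGAG, bound by GAGA factor), this was mura, which encodes a RING-finger protein. For the DRE (TATCGATA, bound by DREF) it was eEF1gamma, a translation elongation factor subunit gene, and for Motif 1 (GGTCACAC, bound by M1BP) it was the ribosomal protein gene RpL30. For the E-box CAGCTG it was Keap1, which encodes a sensor of oxidative stress, and for CATATG, an E-box type known as a site of Twist, it was the sugar transporter gene Ugalt.
mura (chr3R:9551380-9551409, minus strand): agagagtgtgaGAGAGAGgagcgccccgtc
eEF1gamma (chr3R:29220120-29220149, plus strand): ggcctaggaaaTATCGATAtatcgccgtaa
RpL30 (chr2L:19009261-19009290, minus strand): atccccccgtcGGTCACACcaacacaaacg
Keap1 (chr3R:17079434-17079463, minus strand): gtgcaagggtgaCAGCTGtcgccccaggga
Ugalt (chrX:2703912-2703941, minus strand): atcccccaggagCATATGtaaggtgtattt

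The elements that sit at fixed places around the TSS, and 2 further E-boxes that this protein family is known to bind, are shown in the same way. The TATA box (TATAAA) comes from the related repressor gene E(spl)mbeta-HLH and there it starts 30 bases before the TSS. The initiator sequence (TCAGT) is from RpL23A, where it starts at -6, the outermost upstream position searched. The pyrimidine-rich start motif of ribosomal protein genes (CTTTT) is from RpS4, where it starts at 4. RpL23A also has CTTTT starting at 4. The E-box CACGTG, the class B type, is from E(spl)m7-HLH, and CACGCG, the class C type that Hairy-related repressors prefer, is from Awh, a LIM-homeobox gene.
E(spl)mbeta-HLH (chr3R:26006036-26006065, minus strand): cggcagaggctaTATAAAgccgatcccaga
RpL23A (chr3L:1668643-1668672, minus strand): gacaactgccccTCAGTtttccttttcatt
RpS4 (chr3L:13041792-13041821, plus strand): ccgcaaatctgcCTTTTccttttcctgttg
E(spl)m7-HLH (chr3R:26036982-26037011, plus strand): ctctcgcggcggCACGTGcagctataaaag
Awh (chr3L:3845847-3845876, plus strand): tggccaagttggCACGCGccggcgcactca

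Of the 15 strongest summits at these promoters, 4 were at E(spl) genes, 3 at ribosomal protein genes and 8 at other genes. Among the 8, the peak at CG43116 (3R 25996768 to 25997109) lay next to that at E(spl)mdelta-HLH (3R 25997391 to 25997581). The latter is the gene of the mapped protein. The signal of a peak is the authors' enrichment value and is used only within a list. E(spl)mbeta-HLH (3R 26005922 to 26006231) led with a signal of 1431, held ranks 2 and 1 in replicates 1 and 2, and had its summit at -82 from the TSS, negative positions being upstream. RpS4 (3L 13041673 to 13041920, signal 1213) ranked 4 and 6, and its summit was at -3. The gene of the cold shock domain RNA-binding protein yps (3L 12125062 to 12125275, signal 1054) ranked 6 and 8. Hsp83, the fly Hsp90 chaperone gene (3L 3192994 to 3193227, signal 973), ranked 5 and 15, and its summit was at -102. All 15 strongest members had a signal of at least 579.9 and ranked no lower than 64 in replicate 1 and 61 in replicate 2.

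Most, though not all, of these 15 summits sat close to the TSS. RpS28b, CG43116, RpL30, eEF1gamma, E(spl)m7-HLH, E(spl)malpha-BFM, E(spl)mdelta-HLH and the mannosyltransferase gene Alg3 had summits between 6 and 106 bp from the TSS. The other 3 lay farther out. The summit at Stat92E, the transcription factor gene of JAK/STAT signalling (3R 20550650 to 20550813, signal 760.9), was in the 5' UTR 366 bp inside the gene and ranked 13 in replicate 1 and 38 in replicate 2. The summit at the odorant-binding protein gene Obp99b (3R 29717056 to 29717243, signal 696) was 256 bp upstream and ranked 34 and 19. The summit at fkh, a forkhead gene of gut and salivary gland (3R 28585423 to 28585555, signal 579.9), was 224 bp upstream and ranked 64 and 28.

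The signal range of the members was wide, and most of them were weak. The median signal was 163.8, the quartiles were 137 and 224.1, and the lowest was 116.7. The 3 weakest were the N-cadherin gene CadN (signal 116.7, rank 1289 in replicate 1 and 19546 in replicate 2), CG13380 (3627 and 2597) and the GTPase gene RhoL (2961 and 3977). This RhoL summit lay 493 bp from the TSS, and another member summit at RhoL ranked 287 in the thresholded list. Divergent summits had a median signal of 159.5 and distal summits one of 159.2. Among the strongest 550 summits of the list were 250 of the 1224 members (20.4%, 18.2 to 22.8), 60 of the 300 divergent summits (20%, 15.6 to 24.98) and 240 of the 1226 distal summits (19.6%, 17.4 to 21.9). Neither difference passed (two-sided Fisher's exact tests, adjusted p = 0.936 and 0.736). In the top 2750 peaks of replicate 2 alone, 22.2% of one-direction and 17.9% of distal summits were strong, which passed (exact test, adjusted p = 0.0113, highest over 8 alternatives 0.841).

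Summits clustered at the TSS, and more of them lay upstream than inside the gene. The median position was -14 bp, with quartiles at -71 and 23 bp. Of the 1224 members, 694 (56.7%) were within 50 bp, 891 (72.8%, 70.2 to 75.3) within 100 bp and 1047 (85.5%) within 250 bp, and 13 fell on the TSS base itself. Of the divergent summits, 245 of 300 (81.7%) were within 50 bp of a TSS and 286 (95.3%) within 100 bp. Upstream summits numbered 713 of 1224 (58.3%, 55.4 to 61.03) at one-direction promoters and 184 of 300 (61.3%, 55.6 to 66.9) at divergent ones, a difference that did not pass (Fisher's exact test, adjusted p = 0.719). It depended on the replicate, with 57.8% against 66.8% in the top peaks of replicate 2 alone (exact test, adjusted p = 0.0113) and 56.9% against 53.8% in those of replicate 1 alone (exact test, adjusted p = 0.709). Summits at genes on the plus strand (335 of 560 upstream, 59.8%) and on the minus strand (378 of 664, 56.9%) both leaned upstream. The position within 500 bp is part of how the summits were chosen, so the overall closeness to a TSS is a description. The gap in distance from the divergent summits is one too, since those have TSSs on both strands by the rule and so more of them to be near to.

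**Figure D1:**
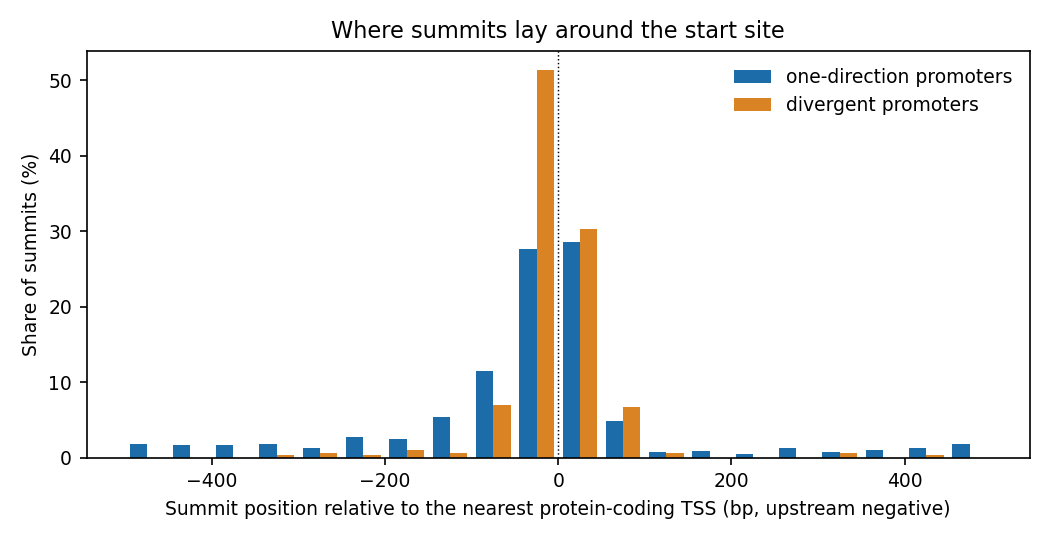
Share of summits (%, y axis) by position relative to the nearest protein-coding TSS (bp, x axis, upstream negative, bins of 50 bp), for the 1224 one-direction (blue) and the 300 divergent (orange) summits. Both peak at the TSS, and the one-direction summits have more of their share beyond 100 bp (333 of 1224 members).

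The annotation under the summits followed this position. Of the 1224 members, 536 (43.8%) lay in a 5' UTR, 375 (30.6%) between genes, 291 (23.8%) in an intron, 15 (1.23%) in a coding exon and 7 (0.572%) in a 3' UTR. An intron here can be that of a longer transcript of the same gene or of a neighbour. The nearest TSSs belonged to 1087 genes, of which 968 had 1 member summit, 102 had 2 and 17 had 3 or more. The BET bromodomain gene fs(1)h had the most, 4, at -200, -121, -118 and 322 bp. Each distance is from the nearest TSS of the gene, which was not the same TSS for all 4. The transcription factor genes lola, ttk and Sox14 and the RNA-binding repressor gene pum were among those with 3. Of the members, 997 (81.5%) had a single TSS position within 500 bp and 1186 (96.9%) a single protein-coding gene.

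One-direction by coding genes did not mean free of any opposite start. A TSS of a non-coding gene lay on the opposite strand within 500 bp of 61 members (4.98%, 3.83 to 6.36), and a tRNA gene began within 250 bp of 4. A protein-coding TSS on the opposite strand stood beyond 500 and up to 1000 bp away from 201 members (16.4%, 14.4 to 18.6), so these would be divergent under a wider window. Just inside the 500 bp limit were sm, an RNA-binding protein gene (499 bp), and ctrip, a ubiquitin ligase gene (498 bp). Just outside it were CG13252 (502 bp) and the initiation factor gene eIF1A (503 bp). Their signals were 227.9 for sm and 232.5 for ctrip, and 162.8 for CG13252 and 154.7 for eIF1A.

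Genes at one-direction promoters had a summit within 500 bp less often than genes at divergent ones. Of the 10141 protein-coding genes whose 5'-most TSS was one-direction, 869 (8.57%, 8.03 to 9.13) had a thresholded summit within 500 bp of it, against 576 of 3804 genes at divergent promoters (15.1%, 14.02 to 16.3; odds ratio 0.525, two-sided Fisher's exact test, adjusted p = 3.4e-27). A summit at a divergent promoter can count for both of its genes. The window of a gene at a divergent promoter also holds, by definition, at least 1 TSS on the opposite strand. The shares are thus per gene window, and a share per TSS was not tested. When only 1 gene was kept per group of TSSs within 500 bp (added after the data had been seen), the shares were 8.44% of 9945 and 15.2% of 1896 genes (Fisher's exact test, adjusted p = 2.9e-17, and between 5.8e-57 and 1.2e-06 over the 7 alternatives). Keeping 1 gene still left the opposite TSS inside the divergent windows.

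The genes with one-direction summits differed from the rest of their kind in structure. Counting only summits that are themselves one-direction, 839 of the 10141 genes (8.27%) had one at the 5'-most TSS. The median length of these 839 genes was 7426 bp, against 2002.5 bp for the 9302 without. More than 1 TSS position was annotated for 45.8% of the genes with a summit and for 23.4% of those without, and 7.39% and 17.1% consisted of a single exon. The share of genes with a summit was alike on the large arms, from 7.41% (6.19 to 8.79) on X and 7.97% on 2L to 8.87% (7.70 to 10.2) on 2R. Chromosome 4 had 2 of 66 genes (3.03%, 0.369 to 10.5).

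Genes of 14 lists were counted against this background of 8.27%, by a summit at the 5'-most TSS and without a test, since the lists were drawn up with earlier results of these data known. Cytosolic ribosomal protein genes had a summit in 35 of 52 cases (67.3%, 52.9 to 79.7), all 35 within 100 bp of the TSS, with a median signal of 293.5. RpS4, RpS28b and RpL30 were the strongest. Translation factor genes had 10 of 32 (31.2%, 16.1 to 50.01), led by eEF1gamma (signal 632, ranks 30 and 59) and eEF2 (347.4, ranks 126 and 641), which encodes the elongation factor for ribosome translocation. The summit of eEF1alpha1 (507.5, ranks 49 and 130), whose product carries tRNAs to the ribosome, was at an inner TSS, and the gene is not among the 32 since its 5'-most TSS is divergent. Of mitochondrial ribosomal protein genes 0 of 20 had one, which allows a share of up to 15% and so includes the background. Proteasome genes had 0 of 25, which allows up to 12% and includes it too, and chaperone genes 1 of 21, Hsp68 (signal 118, ranks 7445 and 1137). Hsp83 is not among these 21, since its 5'-most TSS is divergent while its summit counts as one-direction.

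Among developmental genes, E(spl) genes had a summit in 9 of 11 cases (81.8%, 48.2 to 97.7), with a median signal of 549.4, E(spl)m4-BFM and E(spl)m6-BFM being the exceptions. Notch pathway genes had 7 of 15 (46.7%, 21.3 to 73.4). The corepressor gene gro (signal 293, ranks 549 and 186) and the ligand gene Delta (263.1, ranks 377 and 606) were the strongest of these. The receptor gene N (205.8, ranks 943 and 925) had its summit 4 bp upstream of the TSS. The Notch antagonist numb (348.6, ranks 171 and 293) had its summit at an inner TSS, 15 bp upstream. Without a summit at the 5'-most TSS were also H, Nct, Ser, Su(H), dx, fng and lqf.

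Neuroblast and neural regulator genes had 10 of 28 (35.7%, 18.6 to 55.9), led by emc, an inhibitor of proneural proteins (signal 419, ranks 95 and 212), and the proneural gene ato (384.6, ranks 140 and 188). Trachea and midline genes had 5 of 11 (45.5%, 16.7 to 76.6), with the FGF gene bnl (256.4, ranks 654 and 376) and the guidance cue gene sli (228.8, ranks 487 and 1244), and the EGF receptor ligand gene spi (331.8, ranks 200 and 251), whose 5'-most TSS is divergent and which is not among the 11, had summits at inner TSSs. Cell cycle genes had 4 of 12 (33.3%), the Cdc25 phosphatase gene stg (278.2, ranks 423 and 551) and the cyclin genes CycB3 (227.03, ranks 1012 and 451) and CycB among them, and E2f1 (227.6, ranks 783 and 577), a regulator of S phase entry, had its summit at an inner TSS. Segmentation and Hox genes had 8 of 30 (26.7%), with hry (346.1, ranks 292 and 127), a Hairy-type repressor, and bcd (232.4, ranks 771 and 528) the strongest. The gap gene Kr (223.6) ranked 1294 in replicate 1 and had no summit within 100 bp in replicate 2.

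Chromatin regulator genes had 3 of 16 (18.8%, 4.05 to 45.6), E(Pc) (signal 158.6, ranks 1053 and 2544), ph-d and Su(z)2. Trl, the gene of GAGA factor itself (165.5, ranks 1605 and 2132), and the remodeller gene kis (211.6, ranks 1364 and 398) had summits at other TSSs. Cuticle protein genes had 0 of 68, which allows up to 4.41%, and odorant and gustatory receptor genes 0 of 108, which allows up to 2.78%. Only these 2 of the 14 lists had an interval that ended below 8.27% (upper bounds 5.28% and 3.36%).

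**Figure D2:**
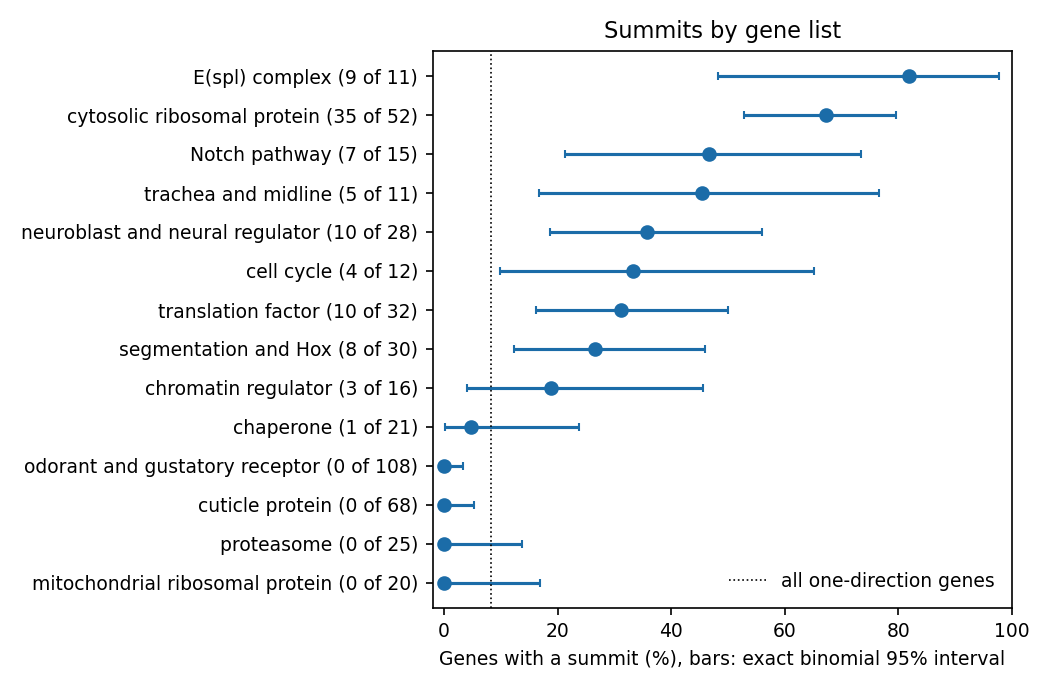
Share of genes with a one-direction summit at the 5'-most TSS (%, x axis) for 14 gene lists (y axis, with counts), with exact binomial 95% intervals as bars. The dotted line marks the 8.27% of all 10141 one-direction genes, and E(spl) and cytosolic ribosomal protein genes lie farthest to its right.

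One-direction and divergent summits differed in sequence, and the elements split by type. The motifs were sought on both strands within 50 bp of the summit. The TSS elements were sought on the coding strand, the TATA box starting at -40 to -20, the initiator at -6 to 6 and the pyrimidine-rich motif at -3 to 7 from the TSS. Of 15 motifs, 6 differed (40% called, Fisher's exact tests adjusted over 27 comparisons), 3 being more frequent at one-direction summits (20%) and 3 less. GAGA repeats were in 129 of 1224 one-direction windows (10.5%, 8.87 to 12.4) and in 9 of 300 divergent windows (3.0%, 1.38 to 5.62; adjusted p = 4.2e-05, exact test). The initiator was at 18.7% (16.6 to 21.01) of the one-direction and 7.67% (4.92 to 11.3) of the divergent promoters (exact test, adjusted p = 6.5e-06). The TATA box was at 4.0% (2.98 to 5.26) and 1.0% (0.207 to 2.89; exact test, adjusted p = 0.0215).

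The elements of broadly active promoters went the other way. The DRE, shown above at eEF1gamma, was in 31 one-direction windows (2.53%, 1.73 to 3.58) and in 23 divergent windows (7.67%, 4.92 to 11.3; Fisher's exact test, adjusted p = 0.000308). Motif 1, shown at RpL30, was in 56 one-direction windows (4.58%, 3.47 to 5.90) and in 43 divergent windows (14.3%, 10.6 to 18.8; exact test, adjusted p = 2.1e-07). The E-box CAGCTG was also less frequent at one-direction summits, with 9.80% (8.20 to 11.6) against 17.7% (13.5 to 22.5; exact test, adjusted p = 0.000797). Mean GC content was 52.4% (SD 6.08, n = 1224) in one-direction and 50.5% (SD 5.83, n = 300) in divergent windows, and the 6 calls held in a test stratified by GC content. All 6 also held where both kinds were limited to summits within 100 bp of the TSS, which was added after the data had been seen (891 and 286 summits, exact tests, adjusted p up to 0.0152). With a TSS window of 250 bp, which leaves 123 divergent summits, the calls of GAGA repeats, the initiator, the TATA box and Motif 1 ended, and with 1000 bp those of CAGCTG and the TATA box. Among the strongest 1375 peaks those of GAGA repeats and the TATA box ended, and at promoters with a single TSS that of the TATA box.

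The class B and class C E-boxes and the N-box had shares close to each other at the promoter kinds. CACGCG was in 8.74% (7.22 to 10.5) of one-direction and 8.0% (5.19 to 11.7) of divergent windows, CACGTG in 2.78% (1.93 to 3.86) and 3.0% (1.38 to 5.62), and the N-box CACNAG in 16.5% (14.5 to 18.7) and 17.7% (13.5 to 22.5). The reordered control GTGCAC was in 4.08% and 5.0%. None of these passed (Fisher's exact tests, adjusted p between 0.743 and 0.846), which does not show that the shares are equal.

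The same split between promoter kinds was there over all genes, with or without a summit. In windows of the same width at the 5'-most TSS of all genes, the DRE was in 3.64% of the 10141 one-direction and in 10.7% of the 3804 divergent genes, and Motif 1 in 4.0% and 9.83%. CAGCTG was in 7.40% and 14.5%, the initiator at 13.3% and 5.13%, and the TATA box at 9.17% and 4.13%. GAGA repeats were the exception in these windows, with 1.26% (1.05 to 1.5) of the one-direction and 1.03% (0.730 to 1.40) of the divergent genes. The windows reach only 50 bp from the TSS, while GAGA sites at the members had a median position of -82.5 bp. Many such sites would lie outside, so these shares do not show whether GAGA repeats differ between promoter kinds farther upstream. Among the 839 one-direction genes with a member summit, these TSS windows held GAGA repeats in 3.46% (2.33 to 4.93), CACGCG in 7.39% (5.71 to 9.37; 3.37% of all one-direction genes) and the TATA box in 4.77% (3.43 to 6.44). They held Motif 1 in 7.51% (5.82 to 9.51), the DRE in 5.13% (3.73 to 6.84), the initiator in 16.9% (14.4 to 19.6) and CAGCTG in 8.10% (6.35 to 10.2). These shares describe the promoters and were not tested against each other.

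Against the distal summits 3 of 12 motifs differed (25% called). The DRE was in 2.53% of one-direction windows and in 1 of 1226 distal windows (0.0816%; Fisher's exact test, adjusted p = 8.7e-08), and Motif 1 in 4.58% and 0.408% (exact test, adjusted p = 4.7e-11). Both are promoter elements, and distal summits lie by the rule over 500 bp from every protein-coding TSS. These 2 tests therefore cannot separate binding from how the summits were classed. At the 5'-most TSS of all one-direction genes, with or without a summit, the shares were 3.64% and 4.0%. CATATG, shown at Ugalt, was in 25 one-direction windows (2.04%, 1.33 to 3.0) and in 72 distal windows (5.87%, 4.62 to 7.34; exact test, adjusted p = 6.5e-06). GAGA repeats were in 10.5% of one-direction and 9.46% (7.88 to 11.2) of distal windows, and that difference did not pass (exact test, adjusted p = 0.688). GC content averaged 50.3% (SD 7.01, n = 1226) in distal windows, and the 3 calls held in the test stratified by GC content.

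**Figure D3:**
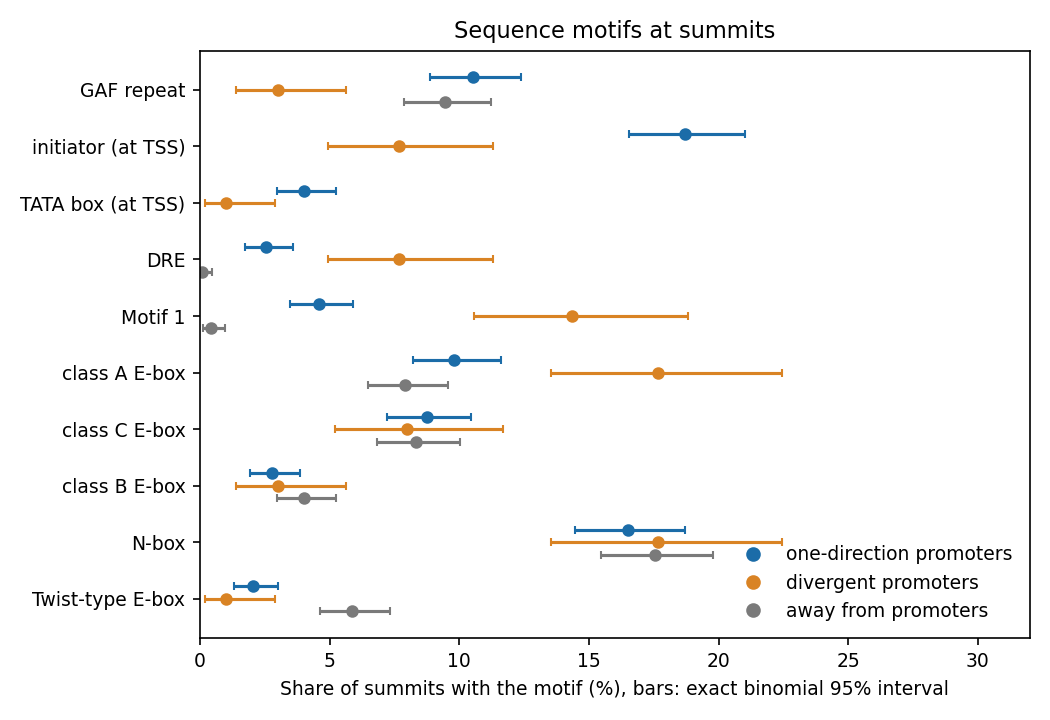
Share of summits with each motif (%, x axis) at one-direction promoters (blue, n = 1224), divergent promoters (orange, n = 300) and away from promoters (grey, n = 1226), with exact binomial 95% intervals as bars. GAF repeat stands for the GAGA repeat, the class A E-box for CAGCTG and the Twist-type E-box for CATATG. The TSS elements have no value away from promoters.

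Within the one-direction summits, sequence changed with distance from the TSS. The split at 100 bp was chosen after seeing the data. Of 15 motifs, 5 differed between the 333 summits over 100 bp and the 891 within 100 bp of the TSS (33.3% called, Fisher's exact tests adjusted over the 15). GAGA repeats were in 15.9% (12.2 to 20.3) of the summits over 100 bp and in 8.53% (6.78 to 10.6) of the near ones (exact test, adjusted p = 0.00254), CAGCTG in 13.5% and 8.42%, and CATATG in 3.90% and 1.35% (exact tests, adjusted p = 0.0309 for both). The DRE was in 2 of 333 (0.601%) and 29 of 891 (3.25%; exact test, adjusted p = 0.0309), and Motif 1 in 3 (0.901%) and 53 (5.95%; exact test, adjusted p = 0.000605). Windows reach 50 bp either side of the summit, so those of summits over 100 bp away leave out the bases nearest the TSS. DRE and Motif 1 sites had median positions of -37.5 and -18 bp. For GAGA repeats, CAGCTG and CATATG too, the windows of near and far summits cover different positions along the promoter. None of the 5 tests can therefore separate sequence from where the windows lay. Of the summits over 100 bp from the TSS, 70.0% (64.7 to 74.8) lay upstream, against 53.9% (50.5 to 57.2) of the near ones. With the split at 50 bp the DRE and CATATG calls ended, and with the split at 200 bp the GAGA and DRE calls ended, which left 3 motifs each.

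The positions of the sites along the promoter were not tested against each other, and sites were sought only within 50 bp of summits that themselves lie near the TSS. GAGA sites, overlapping ones in a longer repeat counted singly, were centred at a median of -82.5 bp from the TSS (282 sites, 79.4% upstream). DRE sites were centred at -37.5 bp (33 sites, 84.8% upstream), CAGCTG at -37.5 bp (136 sites) and Motif 1 at -18 bp (60 sites). Motif 1 was on the coding strand at 44 sites and on the other strand at 16. At Keap1 the CAGCTG site was centred 496.5 bp inside the gene, and at mura the GAGA site was centred at -57 bp.

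**Figure D4:**
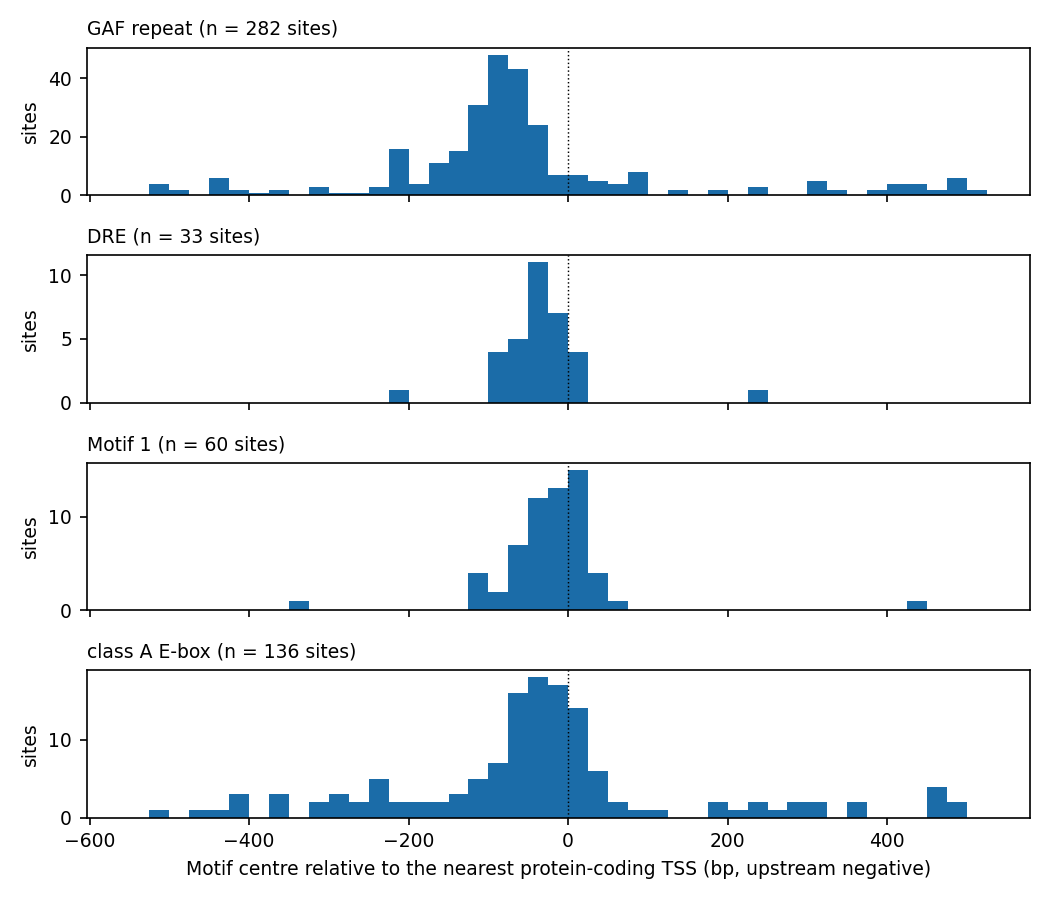
Number of motif sites (y axis) by position of their centre relative to the nearest protein-coding TSS (bp, x axis, upstream negative, bins of 25 bp) in windows of the 1224 one-direction summits. The panels show GAF repeats (GAGAGAG), the DRE, Motif 1 and the class A E-box (CAGCTG), with medians at -82.5, -37.5, -18 and -37.5 bp.

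The elements at the summits of single gene groups are given as counts, and differences between groups were not tested. Of 37 summits at cytosolic ribosomal protein genes, 17 (45.9%), at 16 of 35 genes, had the CTTTT start shown at RpS4. Among all 1224 members, these 17 included, 37 (3.02%) had it. Of the same ribosomal protein gene summits, 8 had Motif 1, 5 the DRE and 0 a GAGA repeat. Of 11 summits at E(spl) genes, 7 (63.6%), at 6 genes, had a TATA box, against 4.0% of all members, and none had a DRE, Motif 1 or GAGA repeat. Of 13 summits at translation factor genes, 4 had the DRE and 3 Motif 1. The initiator was at 5 of 16 summits of neural regulator genes and at 4 of 7 summits of cell cycle genes, the 4 being at 3 genes, against 229 of all 1224 members (18.7%). Across all members, 690 (56.4%) had none of the 6 motifs that differed between promoter kinds, 455 had 1 and 79 had 2 or more. The summit window of ebd1 held both a GAGA repeat and Motif 1.

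Most members had a summit nearby in each replicate's own list. Within 100 bp of the member summit, replicate 1 had a summit for 1216 of 1224 members (99.3%) and replicate 2 for 1196 (97.7%), and each member had one in at least 1 of the replicates. The thresholded list is drawn from the pooled reads of these replicates, so this is not independent of how members were chosen. Where both replicates had one, their summits were a median of 14 bp apart, with 90% within 48 bp (n = 1188). The median position relative to the TSS was -14 bp in replicate 1 and -14.5 bp in replicate 2, and 58.6% and 59.1% were upstream. Both replicates lay on the same side of the TSS for 1041 of 1188 members (87.6%). For members over 100 bp from the TSS this was fixed by the matching distance.

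Strength differed between the replicates for many members. Among the top 2750 peaks of each replicate, 1048 members (85.6%, 83.5 to 87.5) were found in replicate 1 and 921 (75.2%, 72.7 to 77.6) in replicate 2, and 21 in neither. Both top lists held 766 of 1224 one-direction summits (62.6%, 59.8 to 65.3), 182 of 300 divergent (60.7%, 54.9 to 66.2) and 717 of 1226 distal summits (58.5%, 55.7 to 61.3), and neither difference passed (Fisher's exact tests, adjusted p = 0.736 and 0.117). With replicate 1 alone, the difference from the distal summits passed, at 85.6% against 81.2% (exact test, adjusted p = 0.0100), and with replicate 2 alone it turned, at 75.2% against 75.6% (exact test, adjusted p = 0.936, lowest over 11 alternatives 0.0100). The rank correlation of the 2 replicates over the 1188 members was 0.436 (Spearman), given as a description, since all points share 2 libraries and the pooled call.

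Members that fell far behind in 1 replicate did so in either direction. In replicate 2 the profilin gene chic ranked 21377 (151 in replicate 1), CG46319 23793 (671) and CG33523 28768 (923). In replicate 1 the muscle regulator gene Mef2 ranked 13185 (607 in replicate 2), the phosphorylase kinase gene PhKgamma 12260 (370) and CG46385 21059 (950). In all, 31 members ranked beyond 10000 in replicate 2 and 28 had no summit there, against 4 and 8 in replicate 1.

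Within the members, summits away from the TSS and those with GAGA repeats were found in both top lists less often (8 comparisons chosen after seeing the data, Fisher's exact tests adjusted over them). Of the summits over 100 bp from the TSS 55.9% (50.3 to 61.3) were in both, against 65.1% (61.9 to 68.2) of the near ones (exact test, adjusted p = 0.0278). Of the 129 members with GAGA repeats 51.9% (42.97 to 60.8) were in both, against 63.8% (60.9 to 66.7) of the 1095 without (exact test, adjusted p = 0.0375). Among the strongest 550 summits were 12.4% (7.26 to 19.4) of the members with GAGA repeats and 21.4% (18.98 to 23.9) of those without (exact test, adjusted p = 0.0408). For distance the strong shares were 17.1% and 21.7%, which did not pass (exact test, adjusted p = 0.107). With a match asked of 1 replicate only, neither matching difference passed (exact tests, adjusted p between 0.0846 and 0.508). Members with GAGA repeats had a median signal of 153.8, against 166.3 without, and whether strength accounts for their matching was not tested. The 2 splits also overlap, since 53 of the 129 members with GAGA repeats lay over 100 bp from the TSS. Their median distance from the TSS was 87 bp, against 37 bp without, and the splits were not tested jointly.

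**Figure D5:**
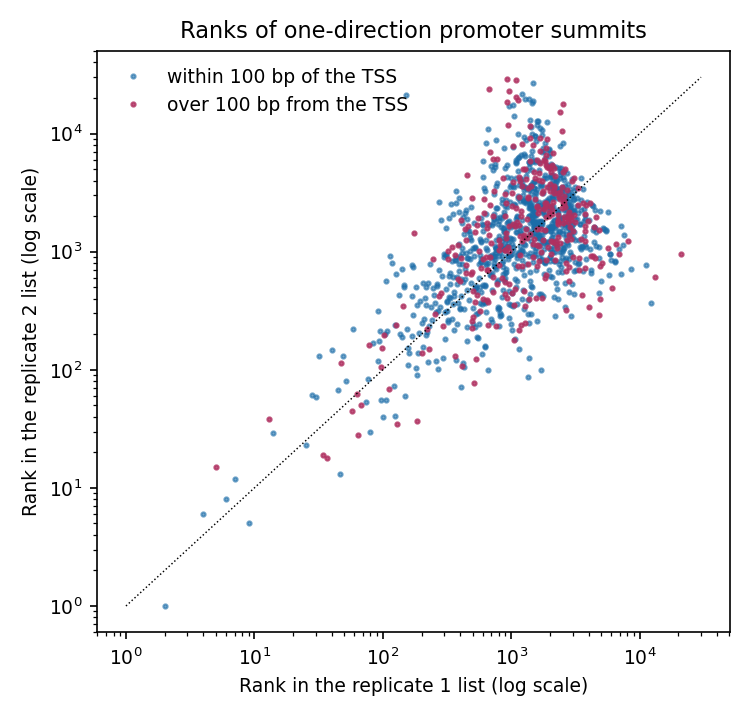
Rank in the replicate 2 list (y axis, log scale) against rank in the replicate 1 list (x axis, log scale) for the 1188 members with a summit in both lists, blue within 100 bp of the TSS and red beyond. Ranks run together at the strong end, from 2 and 1 at E(spl)mbeta-HLH, and spread widely among weak members.

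These tests count summits, not replicates, so their p-values measure the spread between summits of 1 pooled list. Of the 1224 members, 256 share a nearest gene with another member, which the exact tests treat as independent.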

How the data were processed

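The authors deposited peak lists on dm6 in narrowPeak layout, per the file headers and file listing: 1 per replicate and 1 for both pooled (30000 peaks each, background included) and 1 of 2750 peaks thresholded on the irreproducible discovery rate. The signal is a score of the authors, compared only within a list. The deposited q value column is −log10 of q and was at its ceiling in 931 members. The summit offset was deposited as a distance from the peak start, and 2475 of 2750 summits lay at the peak centre. The sources used here do not give the aligner, the peak caller or their versions. Read depth is unknown.

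Summits on the 6 main chromosome arms (X, 4 and both arms of 2 and 3) were classed with Ensembl BDGP6 protein-coding TSSs, coordinates being 1-based. Sequence came from the RefSeq Release 6 genome, where 16193 of 16213 start codons read ATG. Two-sided Fisher's exact tests were adjusted by Benjamini-Hochberg over 6 comparisons of summit kinds, 27 motif comparisons, and 15 and 8 comparisons within the members, at a threshold of 0.05. Shares carry exact binomial 95% intervals that cover counting error only, and the limit for a share of 0 is that of 3 counts. Replicate summits matched within 100 bp. Alternatives changed the TSS window, peak list, matching rule, motif window, GC strata and promoters used. Functions were tested on simulated data.

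Named genes were those nearest to the 15 strongest, 3 weakest, and 3 most rank-shifted members per replicate, the 3 strongest per list, and the 2 summits on either side of 500 bp. Other genes are named as list members or examples, chosen after their values were seen. Members, lists, motifs and tests were chosen with earlier results of these data known. The software was python 3.11.15 with scipy 1.17.1, statsmodels 0.14.6, pandas 2.3.3, numpy 2.4.6 and matplotlib 3.10.9.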

Additional observations from a re-analysis of the deposited data

How the results depend on the processing

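No paired analysis was possible because the design holds 1 group of 2 replicates. Values here are one-direction minus the other kind in percentage points, or counts. The lower share of genes with a summit at one-direction than at divergent promoters kept its direction and call in all 7 alternatives (-9.54 to -3.13). The share of promoter summits that are one-direction was 90.8% with a 250 bp and 71.0% with a 1000 bp window, since the window sets who has an opposite neighbour. Of the motifs against divergent summits, 6 differed in each replicate's list alone, but 2 with the 250 bp window, which leaves 123 divergent summits.

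The results that had not passed were unstable in sign. Replicate matching against divergent summits turned to -0.114 (250 bp), -2.0 (1000 bp), -3.39 (strongest 1375 peaks) and -0.415 (summits within 50 bp), and ranged from -0.755 to 4.95 with 1 replicate left out. Against distal summits it rose to 5.39 and passed with the 250 bp window, and ranged from -0.367 to 4.46 with 1 replicate left out. The strong share against divergent summits turned to -2.16 (250 bp) and -5.70 (strongest 1375 peaks), and against distal summits to -2.61 (strongest 1375 peaks) and -0.420 (ribosomal protein promoters left out), with 0.391 to 4.31 in the replicates alone, the higher passing in replicate 2. The upstream share turned to 5.56 (1000 bp) and ranged from -9.02, which passed, in replicate 2 alone to 3.05 in replicate 1 alone. Within the members, matching differed by -5.60 to -2.94 for distance and -7.86 to -2.12 for GAGA repeats with 1 replicate, and splits at 50 and 200 bp gave 3 motifs.

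Single motifs that had not passed also turned against divergent summits: CACGCG to -0.651 (250 bp); CACGTG to 1.04 (1000 bp), 0.420 (single TSS promoters), 0.0982 (without ribosomal protein promoters) and 0.797 (25 bp either side); CACNAG to 2.26 (replicate 1 alone), 0.255 (strongest 1375 peaks), 0.173 (100 bp either side) and 0.0259 (summits within 100 bp of the TSS). The 6 motifs that had passed kept their direction in all alternatives run. The DRE kept its call in all of them, GAGA repeats lost it in 2, the TATA box in 4, and the initiator, Motif 1 and CAGCTG in 1 each. The cause of these changes was not tested.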
